A study of Mus musculus with 6 samples.

Results

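The 8 genes described here, Sox10, Foxd3, Erbb3, Ngfr, Elavl4, Stmn2, Tubb3 and Gap43, are markers of the cardiac neural crest and of the glia and nerve cells that come from it. They were taken from the count table by gene symbol. All 8 had a row among the 30619 rows of the count table, and 7 passed the filter on low counts. Foxd3 did not.

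The counts came from poly(A) RNA of mouse hearts of embryonic stage E12.5, in 3 control libraries, whose genotype label is WT, and 3 libraries titled CKO, whose genotype label is TRIM28 knockdown. TRIM28 is a co-repressor of transcription that zinc finger proteins bring to DNA. Which Cre driver was used, which exons were deleted and how many hearts went into a library is not given in the sources used here. Whether the cells that express these 8 genes carried the deletion is therefore not known. No label states that libraries came from separate embryos or pools, and the p-values therefore measure only the spread between these samples.

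Neural crest cells leave the dorsal neural tube and migrate along the pharyngeal arches into the outflow tract, where they help to divide the aorta from the pulmonary trunk. Other crest cells, among them Schwann cell precursors, which travel along nerves, supply the parasympathetic and sympathetic neurons and the glia of the heart. SOX10 and FOXD3 are transcription factors of early crest and of glial precursors. ERBB3 and NGFR are surface receptors of these cells, and ERBB3 is also made by the mesenchyme of the endocardial cushions. ELAVL4 (an RNA-binding protein), STMN2 (a microtubule regulator), TUBB3 (a neuronal tubulin) and GAP43 (a growth cone protein) are products of differentiating neurons and their axons.

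Total counts lay between 34400841 and 39763233 per library. Trim28 itself was at 305, 391 and 443 CPM (counts relative to the scaled library size) in the 3 controls and at 172, 314 and 165 CPM in the 3 CKO libraries, a log2 fold change of -0.81 that was not called (SE 0.34, edgeR adjusted p = 0.339). It was called lower with limma-voom (-0.86, adjusted p = 0.0165) and in edgeR without robust estimation (adjusted p = 0.0194), and not with DESeq2 (adjusted p = 0.179). The library labelled CKO 2 lay within the control range, so this gene does not bear out its label. It is called CKO replicate 2 below by its label only, and every direction rests on the labels. The share of counts on a ribosomal RNA row ran from 0.126% to 0.522% in controls and from 0.563% to 0.79% in CKO, and did not overlap. Xist had 4 and 7 counts in CKO replicates 3 and 2 and at least 15232 in the other 4 libraries. The Y-linked Ddx3y had 0 counts in control replicate 2 and at least 1153 in the others. Control replicates 1 and 3 and CKO replicate 1 thus had high counts of both genes, and the other libraries of only 1 of them. No label gives the sex of the hearts, and pooling of both sexes was not tested. Heart muscle markers dominated all libraries, with 10 cardiomyocyte genes summing to between 30512 and 33881 CPM. Of 20 markers of spinal cord and sensory neurons, 12 had a row and 4 passed the filter, and their summed level was 19.3 to 20.4 CPM in controls and 13.6 to 20.9 CPM in CKO, most of it from Sox3. Lhx3 and Tlx3, which mark motor and sensory neurons, had at most 2 counts in any library. In the lists of other tissues and cell types, 1 of 5 tested genes was higher for foregut, lung and liver (Krt18) and 2 of 10 for cardiomyocytes. It was 1 of 10 for epicardium, 3 of 10 for smooth muscle and 4 of 11 for macrophages. None in these lists was lower, beside 3.03% of all tested genes higher and 1.07% lower. In edgeR, 0 of 10 erythroid genes were called, also at an unadjusted p under 0.05. All 10 had a log2 fold change below 0, with a median of -0.45. Their summed level was 1285 to 2215 CPM in controls and 1159 to 1298 CPM in CKO.

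Among the 8 genes, Erbb3 was the 1 gene called, and it was lower in CKO. None was called higher. Across all 17557 tested genes, 4.10% were called in either direction, 3.03% higher and 1.07% lower, at an edgeR adjusted p under 0.05. Of the 7 tested genes, 4 had a log2 fold change below 0 (Erbb3, Elavl4, Stmn2 and Gap43) and 3 had one above 0 (Sox10, Ngfr and Tubb3). Their median was -0.25, beside 0.00 over all tested genes. At an unadjusted p under 0.05 there were 3 of 7, Erbb3, Ngfr and Gap43, against 17.8% of all tested genes.

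Transcript levels of the 8 genes covered a wide range in controls when counts were divided by exon length (CPM per kb of all annotated exons of the gene, exons of rare isoforms included). Gap43 was highest at 16.6 ± 1.27 CPM per kb (SD, n = 3), above 82.1% of the tested genes. Tubb3 followed at 6.05 ± 1.53, Erbb3 at 4.62 ± 0.524 and Ngfr at 2.74 ± 0.0929 CPM per kb (SD, n = 3 each). The median tested gene stood at 4.07 CPM per kb. Elavl4 at 0.721 ± 0.0557, Stmn2 at 0.642 ± 0.126 and Sox10 at 0.324 ± 0.063 CPM per kb were well below it, and Foxd3 was lowest at 0.015 ± 0.00693 (SD, n = 3 each). Elavl4 and Stmn2 were the only neighbours in this order whose control ranges overlapped. In CKO the order of the means was the same, but the ranges of Erbb3 and Ngfr overlapped, as did those of Elavl4, Stmn2 and Sox10.

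**Figure D1:**
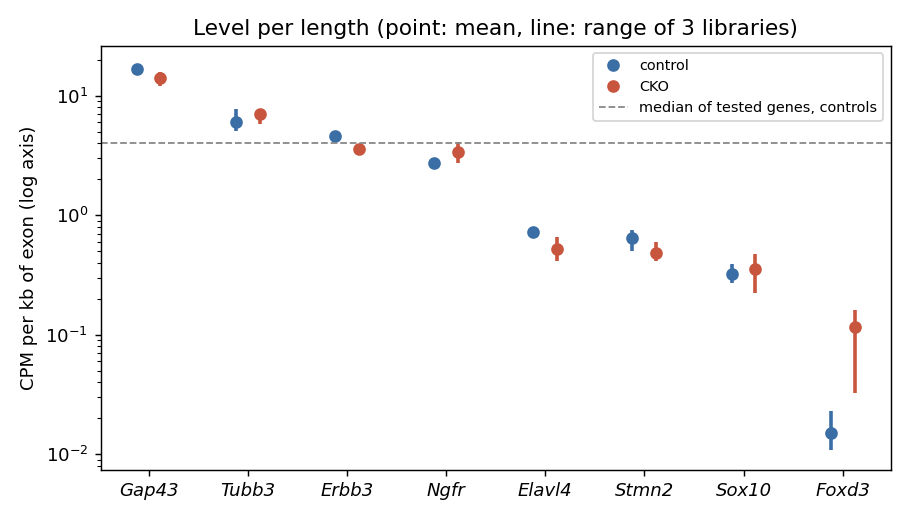
Level of each of the 8 genes per kb of exon on a log axis, in control (blue) and CKO (red) hearts, with points for means and vertical lines for the range of 3 libraries. Gap43 stood highest at 16.6 CPM per kb in controls and Foxd3 lowest at 0.015 CPM per kb; the dashed line marks the median tested gene in controls, 4.07 CPM per kb.

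Sox10 (ENSMUSG00000033006.10, chromosome 15, 79154908 to 79165240, minus strand) encodes the transcription factor that keeps crest cells and glial precursors in their state. It was at 0.928, 0.831 and 1.20 CPM in controls 1, 2 and 3 and at 1.46, 1.10 and 0.682 CPM in CKO replicates 1, 2 and 3. The highest and the lowest library were both CKO, and the controls lay between them. The log2 fold change was 0.12 with a 95% interval from -0.69 to 0.93 (SE 0.39, edgeR adjusted p = 0.919), which covers values on both sides of 0. With 27 to 53 counts per library, counting error alone gives a coefficient of variation of 15.9% in CKO, where 36.1% was seen, and of 16.2% in controls, where 19.5% was seen. Without CKO replicate 1 the sign turned, to -0.17 on the log2 scale.

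Foxd3 (ENSMUSG00000067261.4, chromosome 4, 99656299 to 99658622, plus strand), a single-exon forkhead gene of premigratory crest and Schwann cell precursors, was near the limit of detection. It had 1, 1 and 2 counts in control replicates 1, 2 and 3 and 13, 13 and 3 counts in CKO replicates 1, 2 and 3. CKO replicates 1 and 2 stood apart, and CKO replicate 3 was just above the highest control. Summed over libraries and scaled for depth, the 29 CKO counts were 7.62 times the 4 control counts, with an exact 95% interval from 2.67 to 29.8 that covers counting error only. The ranges of the groups did not overlap, with CKO higher, as in 11.5% of the tested genes. In 3 against 3 this gives an exact two-sided permutation p of 0.1, the smallest this design allows. In an edgeR fit with no filter on low counts, the log2 fold change was 2.81 (SE 1.19, adjusted p = 0.215), so the gene was not called. Foxd3 passed the filter in 4 of the 6 fits without 1 library, only through its counts in CKO replicates 1 and 2. It was called in none of these fits, with edgeR adjusted p from 0.127 to 0.346. Annotated exons of Foxd3 also hold the predicted microRNA gene Gm23366, on the same strand.

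The window around the start of Foxd3 is shown with that of Elavl4, since these were the members with groups that did not overlap for which a RefSeq promoter entry was at hand (4 of the 8 genes matched an entry, GRCm38.p6). Each window runs from 250 bases before the annotated start to 50 bases after it, 5′ to 3′ on the gene's strand. Capitals mark matches to the E-box CANNTG, the letters bound by crest and neural basic helix-loop-helix factors, and to the SOX core letters ACAAAG or ACAATG, both strands searched.
Foxd3, chr4:99656049-99656348, plus strand: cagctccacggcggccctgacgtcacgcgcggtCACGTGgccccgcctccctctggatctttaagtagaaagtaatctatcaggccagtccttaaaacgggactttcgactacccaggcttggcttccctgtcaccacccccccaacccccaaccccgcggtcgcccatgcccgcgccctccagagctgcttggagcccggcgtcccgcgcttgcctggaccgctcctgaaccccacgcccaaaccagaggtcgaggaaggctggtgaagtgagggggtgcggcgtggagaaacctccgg
Elavl4, chr4:110351862-110352161, minus strand: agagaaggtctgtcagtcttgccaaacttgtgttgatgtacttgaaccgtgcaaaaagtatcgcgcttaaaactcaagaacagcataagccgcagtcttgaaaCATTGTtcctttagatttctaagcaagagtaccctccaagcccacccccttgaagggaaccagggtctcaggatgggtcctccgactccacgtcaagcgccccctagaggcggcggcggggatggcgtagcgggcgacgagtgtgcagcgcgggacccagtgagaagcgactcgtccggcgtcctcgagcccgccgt
The Foxd3 window held 1 E-box, CACGTG, which begins 217 bases before the start, and no SOX core. The Elavl4 window held no E-box and 1 SOX core, read on the other strand, which begins 147 bases before the start. Of 32851 promoter windows of this length, 72.3% held an E-box, 7.15% held CACGTG and 28.6% held a SOX core. The Foxd3 window held 25 CpG and the Elavl4 window 23, beside a median of 7. Fewer CpG were found in 81.6% of windows for Foxd3 and in 78.5% for Elavl4. The windows of Ngfr and Tubb3, whose groups overlapped, held 23 and 26 CpG. That of Ngfr held 2 E-boxes and no SOX core, and that of Tubb3 held 2 SOX cores and no E-box. These matches are descriptions of the letters in the windows.

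Erbb3 (ENSMUSG00000018166.8, chromosome 10, 128567523 to 128589652, minus strand) encodes a neuregulin receptor with little kinase activity of its own, which signals as a partner of ERBB2 in Schwann cell precursors and in cushion mesenchyme. It was at 24.1, 29.4 and 29.8 CPM in controls 1, 2 and 3 and at 20.5, 23.3 and 21.5 CPM in CKO replicates 1, 2 and 3. All 3 CKO libraries lay below all controls, although CKO replicate 2 and control replicate 1 were less than 1 CPM apart. Control and CKO means were 27.8 ± 3.15 and 21.8 ± 1.42 CPM (SD, n = 3 each). Erbb3 fell by 0.35 on the log2 scale (SE 0.10, edgeR adjusted p = 0.0461), with a 95% interval from -0.55 to -0.15.

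The call of Erbb3 stood close to the threshold. Leaving out single libraries, edgeR called it in 2 of 6 fits (without control replicate 1, adjusted p = 0.0259, and without CKO replicate 2, adjusted p = 0.013) and lost in the other 4, in edgeR, with adjusted p from 0.116 to 0.207. It was also lost with limma-voom (adjusted p = 0.0713) and in the edgeR fit without robust estimation (adjusted p = 0.0518). The direction was the same in each alternative that was run. With the ribosomal RNA share as a covariate, the log2 fold change shrank to -0.12 (edgeR adjusted p = 0.869), and with Y-linked expression it was -0.31 (edgeR adjusted p = 0.24). That share did not overlap between the groups and cannot be told apart from the group.

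Cushion mesenchyme and endothelium were examined beside Erbb3. In bulk hearts, fewer cells of a type and less RNA per cell cannot be told apart. Of 14 genes of cushion mesenchyme and fibroblasts, 1 was called, beside 4.10% of all tested genes. This was Postn, a matrix protein of cushions and valves, which was lower (-0.29, edgeR adjusted p = 0.0156). The call was lost with the ribosomal RNA covariate (-0.10, edgeR adjusted p = 0.82). Of the 14 genes, 4 had a log2 fold change above 0 and 10 had one below. Col1a1 was at 0.28 (edgeR adjusted p = 0.408) and Vcan, a cushion matrix gene, at -0.26 (edgeR adjusted p = 0.22). The summed level of the 14 ran from 5489 to 6474 CPM in controls and from 5600 to 6492 CPM in CKO, and none was at 0. Much of the sum came from collagens, with Col3a1 at 1432, Col1a1 at 1125 and Col1a2 at 975 CPM in control replicate 1. Per 1000 CPM of this sum, Erbb3 was at 4.07, 5.36 and 4.60 CPM in controls 1, 2 and 3 and at 3.16, 4.10 and 3.84 CPM in CKO replicates 1, 2 and 3, so the groups overlapped slightly (exact two-sided permutation p = 0.2, smallest possible 0.1). Of 10 endothelial and endocardial genes, 3 were lower (Tek, Cdh5 and Kdr), beside 1.07% of all tested genes, none was higher and none was at 0. Their sum was 1585 to 1666 CPM in controls and 1325 to 1554 CPM in CKO. Per 1000 CPM of the endothelial sum, Erbb3 was at 15.2 to 18.2 CPM in controls and at 15.0 to 16.2 CPM in CKO (exact two-sided permutation p = 0.2). The part of these cell types in the lower Erbb3 level was not tested further.

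The partners and ligands of ERBB3 were not called. Erbb2, the co-receptor with the active kinase, was at 211, 225 and 217 CPM in the controls and at 191, 211 and 188 CPM in CKO (-0.15, SE 0.06, edgeR adjusted p = 0.167). Erbb4, the neuregulin receptor of heart muscle, was at 69.5, 69.3 and 77.7 CPM in controls and at 54.2, 78.7 and 62.6 CPM in CKO (-0.15, edgeR adjusted p = 0.634). Nrg1, the neuregulin of endocardium and axons, had a log2 fold change of 0.17 (edgeR adjusted p = 0.561). These genes were chosen from the lists after their values were seen, as were Ntf3, Elavl3, Elavl2, Stmn4, Tuba1a, Nefl, Nefm, Map2, Foxc2, Sox9, Twist1, Ednrb, Sema3c, Dct and Tyr below.

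Ngfr (ENSMUSG00000000120.6, chromosome 11, 95568818 to 95587735, minus strand) encodes the low-affinity neurotrophin receptor p75, made by migrating crest, Schwann cell precursors and neurons. It was at 9.69, 9.09 and 9.59 CPM in controls 1, 2 and 3, a narrow spread. In CKO replicates 1, 2 and 3 it was at 14.2, 9.41 and 11.7 CPM. CKO replicates 1 and 3 were above all controls, and CKO replicate 2 lay among them. For Ngfr, the log2 fold change was 0.32 with a 95% interval from 0.02 to 0.62 (SE 0.14, unadjusted p = 0.0373, edgeR adjusted p = 0.241). Without CKO replicate 2 it was 0.45 and was called (edgeR adjusted p = 0.0368), and without CKO replicate 1 it was 0.16 (edgeR adjusted p = 0.646). CKO replicate 2 was also the CKO library with the highest Trim28 level, and the part of this in the Ngfr value was not tested. Ntf3, a neurotrophin gene, ran from 3.37 to 4.57 CPM over all 6 libraries and was not called (edgeR adjusted p = 0.58).

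**Figure D2:**
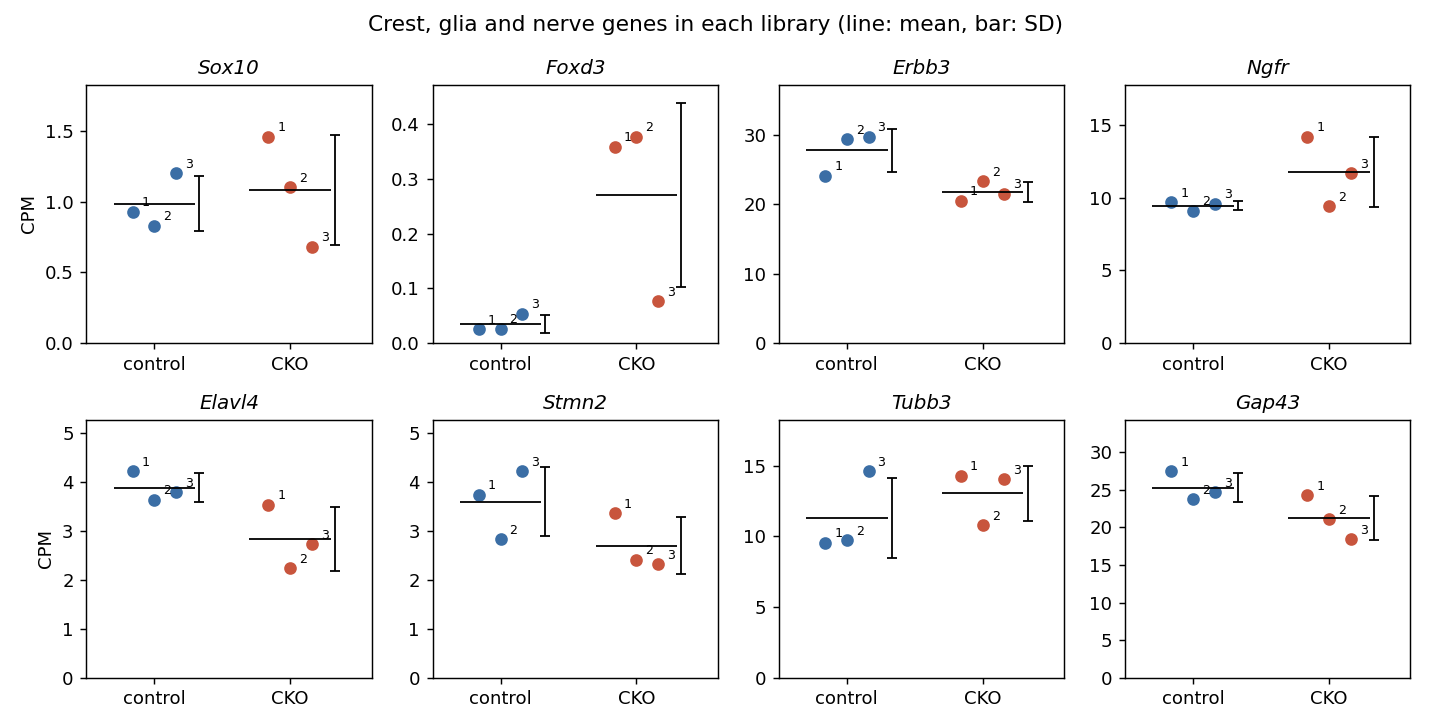
CPM of each of the 8 genes in each library, control in blue and CKO in red with replicate numbers beside the points, horizontal lines for means and bars for SD (n = 3). The groups do not overlap for Erbb3, Foxd3 and Elavl4, while CKO replicate 2 of Ngfr, at 9.41 CPM, lies among the controls.

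The 4 neuronal genes did not share a sign. Elavl4 (ENSMUSG00000028546.17, chromosome 4, 110203722 to 110351909, minus strand) was at 4.22, 3.64 and 3.79 CPM in controls 1, 2 and 3 and at 3.53, 2.24 and 2.73 CPM in CKO replicates 1, 2 and 3. The groups did not overlap, as in 10.6% of all tested genes in this direction, but CKO replicate 1 came close to the lowest control. The log2 fold change was -0.45 with a 95% interval from -0.92 to 0.01 (SE 0.22, edgeR adjusted p = 0.295). Among the tested members, Erbb3 and Elavl4 were the 2 with groups that did not overlap, beside 22.1% of all tested genes in either direction.

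Stmn2 (ENSMUSG00000027500.10, chromosome 3, 8509360 to 8561606, plus strand) was at 3.74, 2.83 and 4.22 CPM in controls 1, 2 and 3 and at 3.37, 2.41 and 2.32 CPM in CKO replicates 1, 2 and 3. CKO replicate 1 lay within the control range and the other CKO libraries below it. For Stmn2, the log2 fold change was -0.41 with a 95% interval from -0.91 to 0.08 (SE 0.24, edgeR adjusted p = 0.388). Stmn2 and Elavl4 had 77 to 168 counts in each library, and counting error alone gives them a coefficient of variation of 8.16% to 10.1%.

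Gap43 (ENSMUSG00000047261.9, chromosome 16, 42248442 to 42340651, minus strand) was at 27.5, 23.8 and 24.7 CPM in controls 1, 2 and 3 and at 24.3, 21.1 and 18.4 CPM in CKO replicates 1, 2 and 3. Only CKO replicate 1 reached into the control range. The log2 fold change was -0.25 with a 95% interval from -0.47 to -0.04 (SE 0.10, unadjusted p = 0.0237, edgeR adjusted p = 0.191).

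Tubb3 (ENSMUSG00000062380.4, chromosome 8, 123411424 to 123422015, plus strand) was at 9.56, 9.74 and 14.6 CPM in controls 1, 2 and 3 and at 14.3, 10.8 and 14.0 CPM in CKO replicates 1, 2 and 3. Control replicate 3 was the highest of all 6, and the groups overlapped. For Tubb3, the log2 fold change was 0.21 with a 95% interval from -0.14 to 0.56 (SE 0.16, edgeR adjusted p = 0.56). Without control replicate 3 it was 0.43, and with the ribosomal RNA share as a covariate 0.62 (edgeR adjusted p = 0.384), neither of them called.

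**Figure D3:**
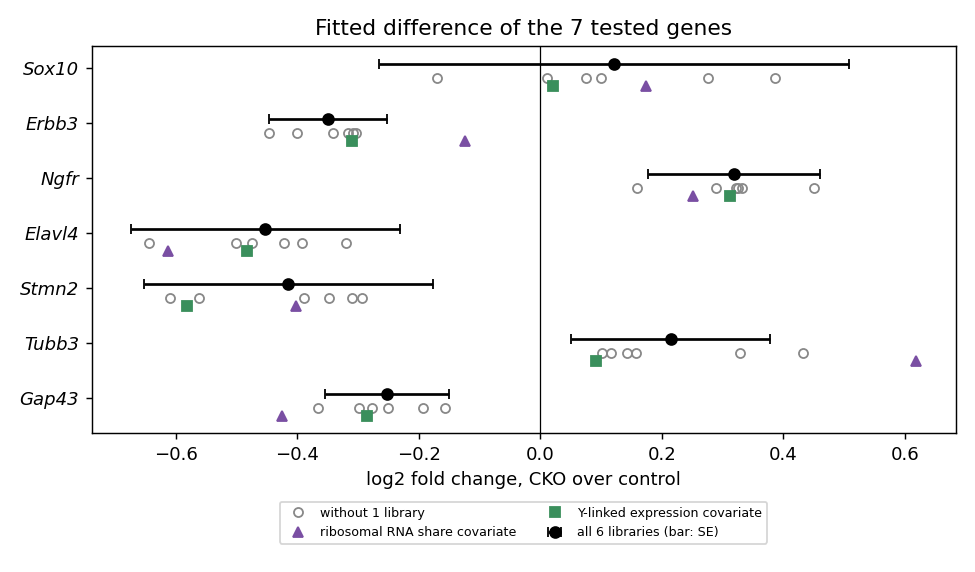
Log2 fold change (CKO over control) of the 7 tested genes in the fit of all 6 libraries (black, with SE), in the 6 fits without 1 library (open circles) and in the fits with 2 covariates (triangle and square). The Erbb3 value shrank from -0.35 to -0.12 with the ribosomal RNA covariate, and of the 7 genes Sox10 alone crossed 0 when a library was left out.

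Elavl3, a neuronal relative of Elavl4, was at 0.527, 0.467 and 0.721 CPM in controls 1, 2 and 3 and at 1.68, 0.726 and 1.11 CPM in CKO replicates 1, 2 and 3 (log2 fold change 1.04, SE 0.43, edgeR adjusted p = 0.203), the opposite sign to Elavl4. Elavl2, another relative, was at 0.36 with groups that overlapped (edgeR adjusted p = 0.501). Stmn4, a relative of Stmn2, was at 17.9 to 18.7 CPM in controls and at 36.3, 17.8 and 31.3 CPM in CKO (0.65, SE 0.28, edgeR adjusted p = 0.329). CKO replicates 1 and 3 were thus well above the controls, and CKO replicate 2 was just below all 3 of them. Tuba1a, an alpha tubulin of young neurons that other embryonic cells also make, had a log2 fold change of 0.40 (edgeR adjusted p = 0.122). It was at 538 CPM in CKO replicate 2 and at 743 and 694 CPM in CKO replicates 1 and 3, against 487 to 508 CPM in controls.

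Of 40 further genes of the neuronal cytoskeleton, axon and vesicles, 36 were tested, 1 was higher and none was lower. Over all tested genes, 3.03% were higher and 1.07% lower. The median log2 fold change was 0.18, with 24 above 0 and 12 below. The gene that rose was Kif1a, a kinesin motor that carries synaptic vesicle precursors along axons. It was at 22.6, 23.0 and 23.5 CPM in controls 1, 2 and 3 and at 52.1, 39.2 and 50.1 CPM in CKO replicates 1, 2 and 3, and every CKO library was far above the controls. The log2 fold change was 1.04 (SE 0.09, edgeR adjusted p = 5.8e-06), and it was called in each of the 6 fits without 1 library and with either covariate. Dpysl3 (-0.18, edgeR adjusted p = 0.0759), Stmn1 (-0.18) and Dpysl2 (0.19) did not pass. Nefl (0.26), Nefm (0.27) and Map2 (0.20), of the same list, were not called.

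Of 25 genes of crest specification and migration, 19 were tested, 2 were lower and none was higher, with a median log2 fold change of -0.15. Over all tested genes, 1.07% were lower and 3.03% higher. Foxc1, a forkhead gene of crest, cushion and arterial mesenchyme, fell from 42.4 ± 1.17 to 31.7 ± 1.76 CPM (SD, n = 3 each, log2 fold change -0.42, SE 0.07, edgeR adjusted p = 0.00223). It was called in each fit without 1 library, but not with the ribosomal RNA covariate (edgeR adjusted p = 0.139). Its relative Foxc2 had a log2 fold change of 0.02. Meis2, a homeobox gene of cranial and cardiac crest, fell from 134 ± 9.39 to 108 ± 3.39 CPM (SD, n = 3 each, -0.31, SE 0.06, edgeR adjusted p = 0.00506), with a call in 4 of the 6 fits without 1 library and none with the ribosomal RNA covariate (edgeR adjusted p = 0.438). Ets1 (-0.17, edgeR adjusted p = 0.0968), Pdgfra (-0.16), Sox9 (-0.15) and Twist1 (-0.26) were not called. Several of these genes are also made by cushion, epicardial or endothelial cells. The premigratory crest gene Pax3 had 0 to 11 counts in each library, and Pax7 and Zic2 had at most 1.

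Of 25 genes of Schwann cell precursors and glia, 22 were tested, 1 was higher and none was lower, and the median was 0.01. Over all tested genes, 3.03% were higher and 1.07% lower. Serpine2, a protease inhibitor made by glia and by many mesenchymal cells, was at 166, 178 and 170 CPM in controls and at 226, 191 and 200 CPM in CKO. It rose (log2 fold change 0.26, SE 0.06, edgeR adjusted p = 0.0181) and was called in 2 of the 6 fits without 1 library, and not with the ribosomal RNA covariate (edgeR adjusted p = 0.443). Mal, a myelin proteolipid gene, was at 2.43, 2.13 and 3.26 CPM in controls 1, 2 and 3 and at 1.30, 1.02 and 1.44 CPM in CKO replicates 1, 2 and 3 (-1.04, SE 0.29, edgeR adjusted p = 0.0519). Cdh19, a cadherin of Schwann cell precursors, was at 1.03, 0.727 and 1.10 CPM in controls and at 0.524, 0.261 and 0.657 CPM in CKO (-0.95, SE 0.45, edgeR adjusted p = 0.281). Both genes had groups that did not overlap, as in 10.6% of all tested genes in this direction, and edgeR called neither after the filter. Mal was called lower with DESeq2 (adjusted p = 0.0188), in edgeR without the filter (adjusted p = 0.0147), with a minimum of 1 CPM in 3 libraries (adjusted p = 0.0458) and without scaling factors (adjusted p = 0.047). Adgrg6, a receptor of Schwann cells, was at -0.28 (edgeR adjusted p = 0.239) and was called lower with DESeq2 (adjusted p = 0.0436), in edgeR without the filter (adjusted p = 0.00039), with the replicate block (adjusted p = 0.0221) and without CKO replicate 2 (-0.43, edgeR adjusted p = 4.98e-05).

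**Figure D4:**
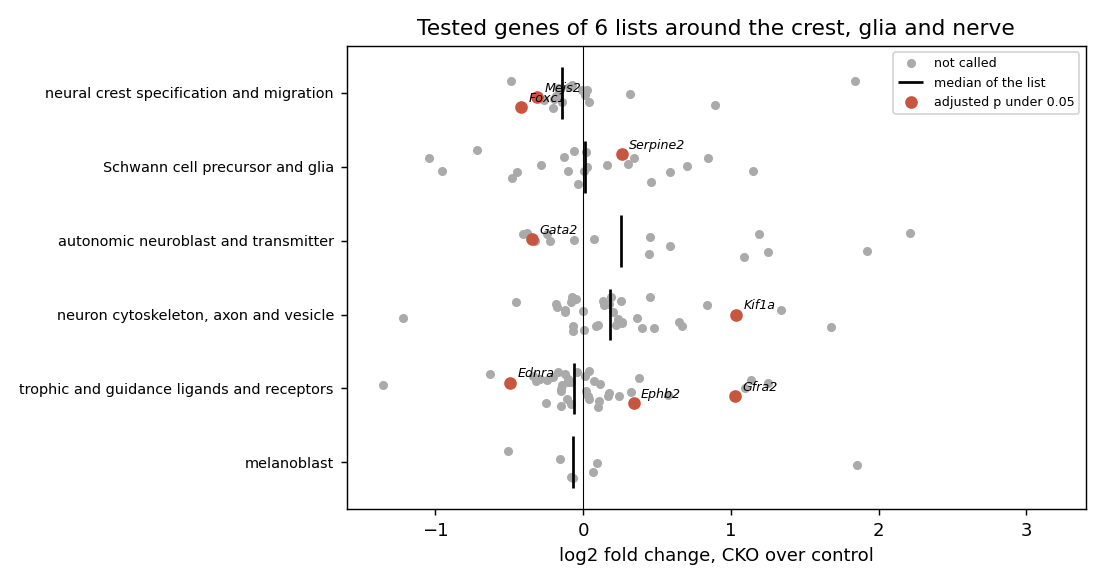
Log2 fold change (CKO over control) of the tested genes of 6 lists around the crest, glia and nerve, with called genes in red and a vertical bar at each list's median. The medians lie between -0.15 and 0.26, and 8 genes were called over the 6 lists, beside 4.10% of all tested genes. Tested were 19 crest, 22 glia, 16 autonomic, 36 neuron, 42 trophic and guidance and 7 melanoblast genes. Ret is in both the autonomic and the trophic list.

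The 24 autonomic genes cover the neuroblast transcription factors and the enzymes and carriers of acetylcholine and noradrenaline. Of these, 16 were tested, 1 was lower and none was higher, beside 1.07% and 3.03% of all tested genes. The lower gene was Gata2 (-0.34, SE 0.09, edgeR adjusted p = 0.0433), a factor of sympathetic neurons that endothelium also makes, and it was called in 1 of the 6 fits without 1 library and with neither covariate. The median log2 fold change was 0.26, with 9 genes above 0 and 7 below.

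Th, the rate-limiting enzyme of catecholamine synthesis, had 17, 11 and 9 counts in controls and 38, 20 and 23 in CKO (1.19, SE 0.53, edgeR adjusted p = 0.237). Th passed the filter through its CKO counts. Ret, the signalling receptor for GDNF family ligands, was at 0.954, 0.286 and 0.321 CPM in controls and at 1.85, 0.901 and 1.04 CPM in CKO (SE 0.48, log2 fold change 1.25, edgeR adjusted p = 0.159). Tlx2, a homeobox gene of crest-derived neurons, did not pass the filter and had 2, 0 and 0 counts in controls and 15, 9 and 30 in CKO. The choline transporter gene Slc5a7 was at -0.41 (edgeR adjusted p = 0.406), and Chat had at most 1 count in any library. The transmitter enzyme Dbh was at 0.59 (edgeR adjusted p = 0.606). Th and Ret stand here by the fixed rule, and the others were chosen after their values were seen.

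Of 45 trophic and guidance ligands and receptors, 42 were tested, 2 were higher and 1 was lower, with a median log2 fold change of -0.06. Over all tested genes, 3.03% were higher and 1.07% lower. Ednra, the endothelin receptor of cardiac and arch crest mesenchyme, fell from 92.7 ± 2.22 to 65.9 ± 4.87 CPM (SD, n = 3 each, -0.49, SE 0.06, edgeR adjusted p = 0.00015). It was called in all 6 fits without 1 library, and the adjusted p was 0.065 with the ribosomal RNA covariate in edgeR. Ednrb, an endothelin receptor gene known from glial and melanocyte precursors, was at 201, 204 and 195 CPM in controls. It was at 139, 196 and 139 CPM in CKO (-0.34, SE 0.15, edgeR adjusted p = 0.328), with CKO replicate 2 again level with the controls. In the same controls, Sox10 was at 0.928, 0.831 and 1.20 CPM and Dct at 2.84, 2.03 and 3.45 CPM. Which cells of the heart made Ednrb was not tested. Gfra2, the receptor subunit for neurturin on parasympathetic neurons, had 189, 156 and 170 counts in control replicates 1, 2 and 3 and 452, 290 and 254 counts in CKO replicates 1, 2 and 3. Every CKO library was above the controls, and the log2 fold change was 1.03 (SE 0.22, edgeR adjusted p = 0.015), called in 3 of the 6 fits without 1 library and with neither covariate. Ephb2, an ephrin receptor of axon guidance, rose by 0.34 on the log2 scale (SE 0.09, edgeR adjusted p = 0.0433), but was called without CKO replicate 2 alone among these fits, and with neither covariate. Sema3c, a guidance cue for crest in the outflow tract, was at -0.32 (SE 0.11, edgeR adjusted p = 0.143), and Cxcl12 at -0.25 (edgeR adjusted p = 0.109).

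Melanoblasts, a further crest lineage that settles in the heart, left few traces. Of 10 markers, 9 had a row and 7 were tested. At an edgeR adjusted p under 0.05, 0 were called, beside 4.10% of all tested genes. At an edgeR unadjusted p under 0.05 there was 1, beside 17.8%. This was Mlana, with 13, 12 and 7 counts in controls and 27, 23 and 61 in CKO (1.85, SE 0.54, edgeR adjusted p = 0.0587). It passed the filter through its CKO counts, and it was called higher with DESeq2 (adjusted p = 0.0283), in edgeR without the filter (adjusted p = 0.0203) and without CKO replicate 2 (2.06, edgeR adjusted p = 0.022). Its partners in pigment synthesis, Dct (0.07), Pmel (-0.51) and Tyr (-0.16), did not share its direction as a group. Mitf (-0.07) and Kit (-0.08), which other cells also make, were close to 0.

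The patterns of the 8 genes over the 6 libraries were set beside those of 12065 genes whose average log2 CPM reached 1. The closest to Erbb3 was Sall3 (Pearson r = 0.998), to Sox10 Rem2 (0.967), to Foxd3 Mapk14 (0.984) and to Ngfr Rtn4 (0.998). The closest to Stmn2 was Bfar (0.993), to Tubb3 Mrpl47 (0.998), to Elavl4 Mrm2 (0.998) and to Gap43 Aldh7a1 (0.993). With 6 points and so many genes searched, values of this size are descriptions of likeness in these libraries, and the points share the batch, depth and composition of each library.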

How the data were processed

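The authors deposited 1 table of raw counts by gene symbol, with a column for each of 6 libraries of E12.5 mouse hearts (3 control and 3 CKO, grouped and numbered by the sample titles). Reads were placed on mm10, per the submitters' processing notes. Which aligner, counter, annotation and strand setting served is not given in the sources used here. Of 30619 rows, 30151 matched 1 gene of GENCODE M21 after 2017 altered symbols were restored, and positions and exon lengths come from it. Totals are given in the report, and intervals on counts cover counting error only.

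Genes were filtered with filterByExpr (minimum count 10, total 15), which left 17557 genes and removed 0.0756% of counts. The test was edgeR 4.0.16 in R 4.3.3, with TMM factors and a robust quasi-likelihood fit on group, two-sided, and Benjamini-Hochberg adjustment over all tested genes at 0.05. SE is the log2 fold change over the root of F, and 95% intervals use the fit's degrees of freedom. CPM use TMM-scaled library sizes. The pipeline was tested on simulated data with 50 genes changed at each fold. It recovered 6% of genes changed 1.2-fold, 64% at 1.5-fold, 84% at 2-fold and 94% at 4-fold. Of the calls, 2.36% were false. Differences near 1.2-fold were thus mostly missed. DESeq2 1.42.0 and limma-voom (limma 3.58.1) were among the alternatives, with other scaling factors and filters, a replicate block, fits without each library and 2 covariates. One covariate was the log2 share of the ribosomal RNA row CT010467.1, the other the log2 summed CPM of 4 Y-linked genes.

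The 8 genes were given by name. The 15 lists were written for this work, and all were chosen with earlier results of these data known. Named are the 8 genes, Trim28, and of each list the genes with the smallest adjusted p (up to 4 for crest, glia, nerve, trophic and melanoblast lists, up to 2 for others), as far as the account needs them. Genes named beyond this rule were chosen after their values were seen. Some genes that this rule selects are not reported here.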

Additional observations from a re-analysis of the deposited data

How the results depend on the processing

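Over all genes, 532 were called higher and 188 lower. Higher calls numbered 863 without the low-count filter, 279 with the Y-linked covariate and 53 with the ribosomal RNA covariate. Lower calls numbered 388, 38 and 3 under the same settings and 321 with DESeq2. Without 1 library, higher calls ran from 255 to 1012 and lower calls from 39 to 540, the highest of both without CKO replicate 2. Among the 8 genes, lower calls numbered 1, and 0 with limma-voom, without robust estimation and with either covariate. They ran from 0 to 1 without 1 library, and higher calls also ran from 0 to 1. Sox10 ran from -0.17 (without CKO replicate 1) to 0.39 (without CKO replicate 3), and the cause was not tested. Alternatives were run for the 8 genes and the genes named by rule, not for those chosen after their values were seen.

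The replicate numbers are shared by the groups but no label says that they mark a litter, batch or day. Deviations of same-numbered libraries from their group means correlated at 0.00, 0.02 and 0.00 (Pearson r over tested genes), so the numbers were not taken as pairs. With the replicate number as a block, 518 genes were called higher and 158 lower, and Erbb3 had a log2 fold change of -0.35 (edgeR adjusted p = 0.0419). Low counts limit Foxd3, Sox10 and most autonomic genes.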
